A study of Homo sapiens with 4 samples.

Results

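The 35 genes described here encode the enzymes, carriers and regulators of fatty acid oxidation and of ketone body metabolism, and were taken from a list of names. No measured value enters the rule, but the list was drawn up with earlier results of these data known. The deposited tables give NCBI Gene numbers and no gene names, so the names were matched to those numbers through RefSeq, and 35 of 35 were found among the 46427 gene numbers of each table. RNA was sequenced from Huh7 and HepG2, established human liver tumour cell lines labelled as hepatocellular carcinoma with a WT genotype, 48 h after the cells had received either a control siRNA (NC-siRNA) or one directed at COP1 (COP1-siRNA), each at 20 nM. COP1 is an E3 ubiquitin ligase that marks other proteins for degradation. Each combination of line and siRNA gave 1 library, and the 4 libraries share a batch label, so a difference between siRNAs within a line has no replicate check and no p-value. Each line is a single tumour line grown in serum-containing medium, and nothing in the labels describes fasting or a fatty acid load before RNA was taken.

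Fatty acids are burnt in mitochondria after the carnitine shuttle has carried them in as acyl groups. Each turn of β-oxidation then runs through a dehydrogenase, a hydratase, a second dehydrogenase and a thiolase. Electrons of the first dehydrogenase leave through the electron transfer flavoprotein. Peroxisomes shorten very long and branched chains by a parallel set of enzymes, and the liver turns surplus acetyl-CoA into ketone bodies for other organs, a programme driven in fasting by the nuclear receptor PPARA.

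Levels are TPM, a transcript abundance that is corrected for gene length and scaled to a sum of 1000000 in a library. Differences are given as log2((TPM + 1)/(TPM + 1)), which understates the change of low genes, and genes under 1 TPM in both libraries of a comparison were left out of it. The tables hold no read counts, so the depth of each library and the counting error of a value are unknown. From the ratio of coverage to TPM, the COP1-siRNA library was 1.18 times as deep as the NC-siRNA library in Huh7 and 1.25 times in HepG2. In bulk RNA a lower level in every cell and a loss of the transcript from some cells cannot be told apart.

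The targeted gene was lower in both lines. COP1 (chr1:175944826-176209087, minus strand, GRCh38) stood at 19.7 TPM in the Huh7 control library and at 6.18 TPM after knockdown, a log2 difference of −1.53. In HepG2 it stood at 26.9 and 16.1 TPM, a log2 difference of −0.71, which did not reach 2-fold. The 9 hepatocyte markers examined, among them ALB, APOB and HNF4A, were at or above 1 TPM in all 4 libraries. Their summed level was 20309 and 18181 TPM in Huh7 and 2672 and 3083 TPM in HepG2 with NC-siRNA and COP1-siRNA. The 4 blood, 3 endothelial and 3 fibroblast markers summed to between 0.165 and 7.36 TPM in every library. Of the 3 cholangiocyte markers, KRT7 and CFTR were under 1 TPM throughout and the broadly expressed SLC4A2 was not.

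COP1 knockdown left the fatty acid oxidation genes without a single 2-fold difference in either line. In Huh7, 32 of the 35 genes were tested (BDH1, PDK4 and FGF21 were too low), and 0 of 32 were past 2-fold, where 1.08% of the 13000 genes tested were. In HepG2, 34 were tested (FGF21 was too low), and 0 of 34 were past 2-fold, where 0.934% of 14456 genes were. At those shares of all genes, a count of 0 among so few genes does not set the group apart. The medians of the group lay close to those of all genes, at −0.00066 beside −0.00083 in Huh7 and at 0.0090 beside −0.0080 in HepG2, on the log2 scale. In Huh7 the 32 genes were split into 16 above and 16 below 0 and ranged from −0.60 to 0.38. In HepG2 they were split into 18 above and 16 below 0 and ranged from −0.28 to 0.44.

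A threshold of 1.5-fold brought in 2 genes. SLC25A20 and SCP2 were both lower by more than 1.5-fold in Huh7, 2 of 32 genes where 5.48% of all tested genes were past 1.5-fold in either direction. Neither gene was past 1.5-fold with FPKM, where the log2 differences were −0.53 for each, or with upper-quartile scaling, where they were −0.56 and −0.55. In depth-scaled coverage SLC25A20 was past 1.5-fold and SCP2 was not. In HepG2 0 of 34 were past 1.5-fold, where 4.43% of all tested genes were. The summed level of the 35 genes was 2838 and 2795 TPM in Huh7 with NC-siRNA and COP1-siRNA, and 2356 and 2353 TPM in HepG2. The sum therefore differed by little between siRNAs, and by more between the lines. In Huh7 it held opposite differences of SCP2 (284 and 188 TPM) and ETFA (412 and 506 TPM), each smaller in depth-scaled coverage.

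**Figure D1:**
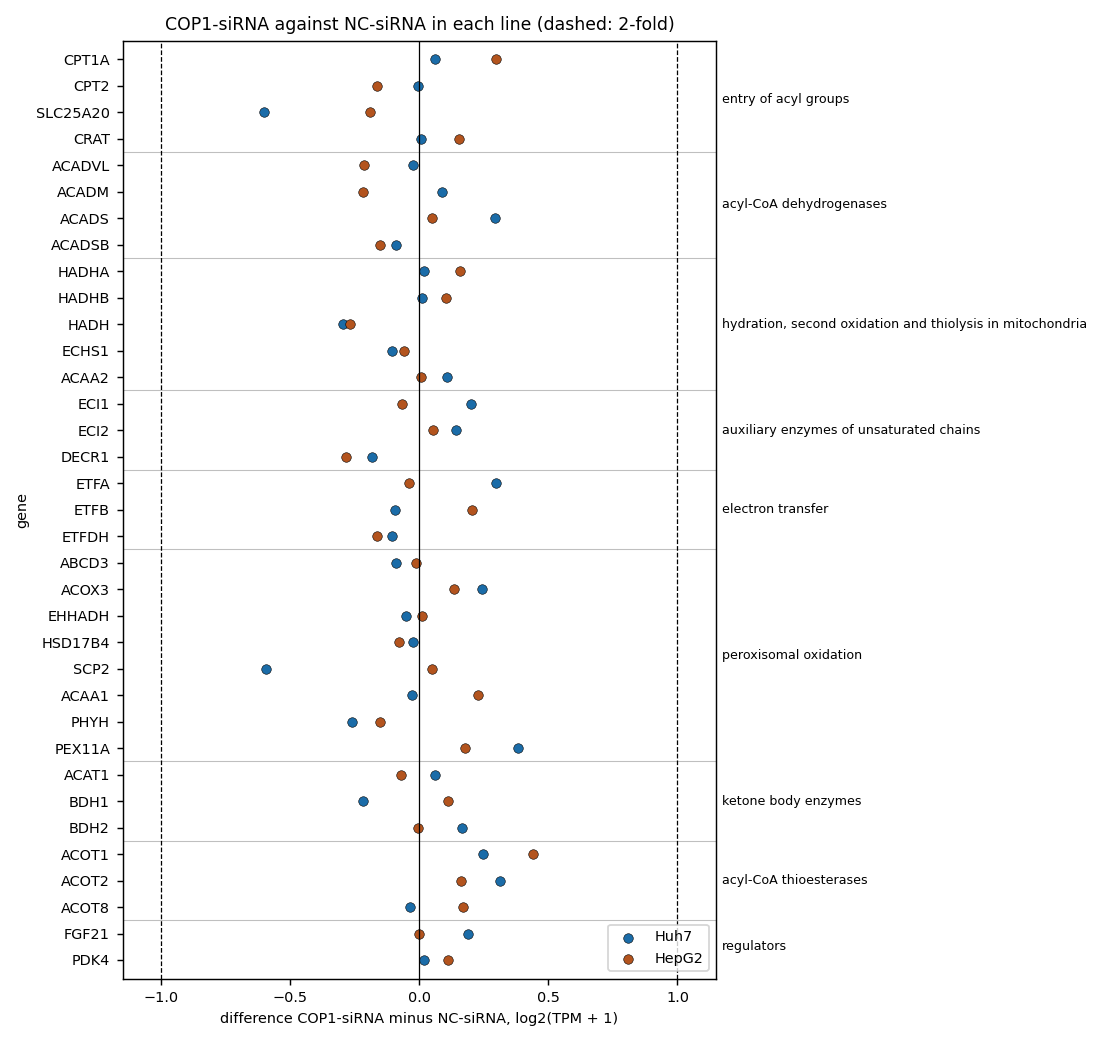
Difference between COP1-siRNA and NC-siRNA, in units of log2(TPM + 1), for each of the 35 genes in Huh7 (blue) and HepG2 (orange), ordered by role, with 1 library per condition and no error bars. All points lie between the dashed 2-fold lines, from −0.60 to 0.44, and SLC25A20 and SCP2 in Huh7 lie farthest to the left.

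Across the lines the siRNA contrast was measured in 2 different cell lines, which share no library. A limma fit with terms for line and siRNA over the 4 libraries, with 1 residual degree of freedom per gene, called 0 of 34 members at an adjusted p under 0.05, where it called 0% of the 15486 genes tested. At an unadjusted p under 0.05 it held 1670 of the 15486 genes and 5 of the 34 members, HADH, SLC25A20, ACOT1, ACOT2 and DECR1. The lowest adjusted p among the members in this limma fit was 0.311, for HADH. COP1 itself, with a log2 difference of −1.12 (SE 0.197), had a limma adjusted p of 0.184, so the targeted gene did not pass the threshold of this fit either. The direction was the same in both lines for 22 of the 32 genes tested in both (68.8%), 11 higher and 11 lower, beside 60.2% of the 11970 genes tested in both lines.

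Entry of acyl groups into mitochondria held 1 of the genes past 1.5-fold in Huh7, SLC25A20. CPT1A, which forms acylcarnitine at the outer membrane and is the rate-setting step of the pathway, was at 25.0 and 26.1 TPM in Huh7 and at 12.7 and 15.9 TPM in HepG2 (NC-siRNA first here and in the pairs that follow). SLC25A20 (chr3:48856926-48898882, minus strand, GRCh38), the carrier that exchanges acylcarnitine for carnitine across the inner membrane, was at 61.9 and 40.4 TPM in Huh7 and at 22.0 and 19.1 TPM in HepG2. Its level with COP1-siRNA was 65.3% of that with NC-siRNA in Huh7 and 87.0% in HepG2, log2 differences of −0.60 and −0.19. Depth-scaled coverage, the deposited coverage divided by the library's median coverage per TPM, gave nearly the same log2 differences, −0.61 and −0.20. The limma fit over both lines gave SLC25A20 −0.40 (SE 0.123, adjusted p 0.334). CPT2, which hands the acyl group back to CoA inside the matrix, differed little, at 37.0 and 36.8 TPM in Huh7 and at 33.8 and 30.05 TPM in HepG2. CRAT, which handles acetyl groups in mitochondria and peroxisomes, was at 32.8 and 32.9 TPM in Huh7 and at 14.5 and 16.3 TPM in HepG2. Of these 4 genes, SLC25A20 and CPT2 were lower and CPT1A and CRAT higher with COP1-siRNA in HepG2.

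The 3′ UTR of SLC25A20 is shown because, among the tested genes of the group, it alone held the 7 letters AGCAGTC, a sequence picked after the values of these libraries were seen, since genes that hold it were lower. It is not a seed match of COP1-siRNA, whose strands match CCAAGTT and AGCATTC. The site starts at base 75 of the 774 bases of the 3′ UTR of ENST00000319017.4 and lies at chr3:48857629-48857635 in a window of chr3:48857617-48857646, minus strand, GRCh38. Beside it stands the site of COP1-siRNA's antisense strand in ACADSB, at chr10:123057638-123057644 in a window of chr10:123057627-123057656, plus strand, base 3873 of a 3′ UTR of 4546 bases. Capitals mark the 7 letters.
SLC25A20: aagcagaactaAGCAGTCttggagggcaag
ACADSB: ccacccaactgCCAAGTTagtattgttaga
Of 10807 tested genes with a GENCODE 29 3′ UTR (1 transcript per gene), 9.38% held AGCAGTC in Huh7, and their median log2 difference was −0.13 beside 0.0025 for the genes without it. In HepG2 9.46% of 11912 genes held it, with medians of −0.086 and −0.0032. These medians come from the libraries that led to the choice of the letters and are a description. Whether the letters bear on the level of SLC25A20 was not tested. For CCAAGTT the medians with and without the site were −0.018 and −0.0056 in Huh7 and −0.0019 and −0.011 in HepG2, and ACADSB itself had log2 differences of −0.09 and −0.15. The letters AGCATTC were in ACADSB and PDK4.

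The acyl-CoA dehydrogenases, which open each turn of the cycle on chains of different length, showed no common direction. ACADVL, which takes the longest chains, was at 74.2 and 72.9 TPM in Huh7 and at 45.3 and 38.8 TPM in HepG2. ACADM, the medium-chain enzyme, was at 46.0 and 48.9 TPM in Huh7 and at 125 and 107 TPM in HepG2. ACADS, the short-chain enzyme, was at 19.4 and 24.0 TPM in Huh7 and at 13.8 and 14.2 TPM in HepG2. ACADSB, which acts on short branched chains from isoleucine, was at 19.1 and 17.8 TPM in Huh7 and at 26.3 and 23.6 TPM in HepG2. In HepG2, 3 of the 4 were lower with COP1-siRNA, with a median log2 difference of −0.18, and in Huh7 2 of 4 were lower, with a median of 0.030.

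The later steps of the mitochondrial cycle were carried by some of the highest transcripts of the group. HADHA and HADHB, the subunits of the mitochondrial trifunctional protein for long chains, were at 181 and 131 TPM in Huh7 with NC-siRNA and at 184 and 132 TPM with COP1-siRNA. In HepG2 HADHA was at 163 and 182 TPM and HADHB at 119 and 128 TPM. The ratio of HADHA to HADHB was 1.39 and 1.39 in Huh7 and 1.37 and 1.43 in HepG2, so the levels of the subunits kept close to each other in all 4 libraries. ECHS1, the short-chain hydratase, was at 215 and 199 TPM in Huh7 and at 233 and 223 TPM in HepG2. HADH, the dehydrogenase for medium and short chains, was at 40.8 and 33.0 TPM in Huh7 and at 84.0 and 69.6 TPM in HepG2. HADH was lower in both lines by similar amounts, with log2 differences of −0.30 and −0.27, a limma estimate of −0.28 (SE 0.0824) and an adjusted p of 0.311. ACAA2, the mitochondrial thiolase, was at 90.0 and 96.9 TPM in Huh7 and at 43.2 and 43.4 TPM in HepG2.

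HADHA and HADHB lie head to head, and the DNA between them is shown beside the ratio of their levels, which differed little across the libraries. Whether this DNA bears on the ratio was not tested. In the deposited tables HADHA (chr2:26190635-26244632) is on the minus strand and HADHB (chr2:26244748-26290465) on the plus strand, which leaves 115 bases between their starts. The RefSeq window of the HADHA start, chr2:26244583-26244882, minus strand, GRCh38.p14, is printed with those 115 bases in capitals. Its GC content was 67.7%, and 68.7% in the capitals.
HADHA and HADHB: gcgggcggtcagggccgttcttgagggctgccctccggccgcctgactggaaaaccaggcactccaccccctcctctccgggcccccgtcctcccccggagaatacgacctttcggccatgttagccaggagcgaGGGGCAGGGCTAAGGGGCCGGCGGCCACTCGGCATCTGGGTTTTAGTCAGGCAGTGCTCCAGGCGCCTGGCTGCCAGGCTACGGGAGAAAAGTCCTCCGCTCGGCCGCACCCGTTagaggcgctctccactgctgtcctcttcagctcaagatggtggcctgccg
RefSeq promoter windows of 300 bases were at hand for 29 of the 35 genes, 38 windows in all, and not for CRAT, DECR1, ETFDH, EHHADH, ACAA1 and ACOT1. The direct repeat bound by PPAR with its partner RXR, the letters AGGTCA repeated after 1 base of any kind and searched on both strands, was in 0 of these 38 windows and in 8 of all 35116 windows (0.0228%). A single AGGTCA, which every such repeat contains, was also in 0 of the 38, and in 13.8% of all windows. The absence says only that these letters were not in these windows.

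Auxiliary enzymes for unsaturated chains were higher or lower by small amounts. ECI1, a mitochondrial enoyl-CoA isomerase, was at 63.9 and 73.5 TPM in Huh7 and at 63.5 and 60.6 TPM in HepG2. ECI2, an isomerase of mitochondria and peroxisomes, was at 89.3 and 98.5 TPM in Huh7 and at 188 and 195 TPM in HepG2. DECR1, the mitochondrial dienoyl-CoA reductase, was at 28.8 and 25.2 TPM in Huh7 and at 23.4 and 19.1 TPM in HepG2. The HepG2 difference of DECR1 was −0.28 in TPM and −0.08 in depth-scaled coverage, so it depended on the column used.

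ETFA had the highest TPM of the 35 genes in every library, and the direction of its difference between siRNAs depended on the column used. ETFA and ETFB are the subunits of the electron transfer flavoprotein, which takes electrons from the acyl-CoA dehydrogenases, and ETFDH passes them on to ubiquinone. ETFA was at 412 and 506 TPM in Huh7 and at 288 and 280.1 TPM in HepG2. Its log2 difference in Huh7 was 0.30 in TPM but −0.01 in depth-scaled coverage, and in HepG2 −0.04 in TPM but 0.11 in coverage, so the sign was opposite in both lines. Coverage per unit of TPM went from 1.93 to 1.84 for ETFA in Huh7, where the library median was 1.18 times as high with COP1-siRNA. ETFB was at 181 and 169 TPM in Huh7 and at 175 and 201 TPM in HepG2. The ratio of ETFA to ETFB was 2.28 and 2.999 in Huh7 and 1.65 and 1.39 in HepG2 in TPM. In coverage the ratio was 2.90 and 3.06 in Huh7 and 1.81 and 1.71 in HepG2, so the siRNAs differed less by that column. ETFDH was at 18.1 and 16.7 TPM in Huh7 and at 33.3 and 29.6 TPM in HepG2. ETFDH overlaps PPID on the opposite strand, which stood at 48.6 to 97.3 TPM. CPT2 with CZIB, HADHA with GAREM2 and ACOT8 with SNX21 also overlap on opposite strands. The libraries keep the strand, which can separate such reads, but how reads of overlapping genes were assigned is not given in the sources used here. ACOT1 overlaps RIOX1 on the same strand, where the strand does not separate them. RIOX1 was at 11.9 and 12.1 TPM in Huh7 and at 1.37 and 1.47 TPM in HepG2.

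**Figure D2:**
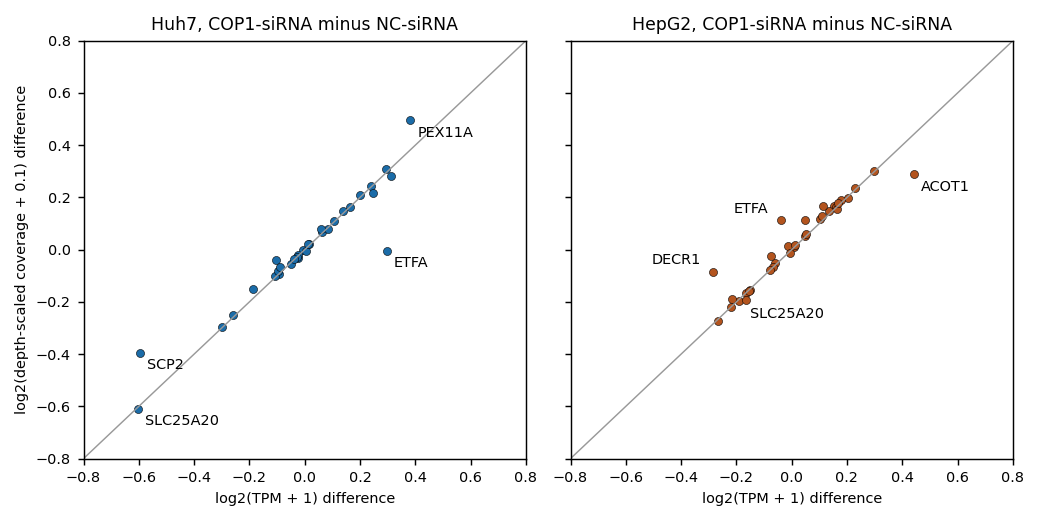
Difference between COP1-siRNA and NC-siRNA by log2(TPM + 1) on the horizontal axis and by log2(depth-scaled coverage + 0.1) on the vertical axis, 1 point per gene tested, Huh7 on the left and HepG2 on the right, with the grey line marking equal values. Most points lie on the line, and ETFA at 0.30 and −0.01 and SCP2 at −0.60 and −0.40 lie off it in Huh7.

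Peroxisomal oxidation held the other gene past 1.5-fold in Huh7. SCP2 (chr1:52927229-53051698, plus strand, GRCh38), whose gene yields both a thiolase for branched chains and the lipid carrier sterol carrier protein, was at 284 and 188 TPM in Huh7 and at 67.6 and 70.0 TPM in HepG2. Its level with COP1-siRNA was 66.0% of that with NC-siRNA in Huh7 and 103% in HepG2, log2 differences of −0.60 and 0.05. In depth-scaled coverage the differences were −0.40 and 0.11, so the Huh7 value was smaller there. The difference between the lines in the siRNA effect was not tested, since the 4 libraries leave no degree of freedom for it. Coverage per TPM of SCP2 was 0.396 and 0.536 in Huh7 and 0.405 and 0.531 in HepG2, where the median gene of the library was at 2.19, 2.57, 2.04 and 2.55. The tables give no value per isoform, so the thiolase and the carrier transcripts were not separated.

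The other peroxisomal genes differed less between siRNAs. ABCD3, a transporter of acyl-CoA into peroxisomes, was at 97.1 and 91.2 TPM in Huh7 and at 81.6 and 80.8 TPM in HepG2. ACOX3, an oxidase for branched chains, was at 14.9 and 17.8 TPM in Huh7 and at 7.04 and 7.82 TPM in HepG2. EHHADH, the bifunctional enzyme of straight chains, was at 6.90 and 6.63 TPM in Huh7 and at 8.80 and 8.87 TPM in HepG2. These differences had the same sign in both lines for ABCD3 and ACOX3 and the opposite sign for EHHADH. HSD17B4, the bifunctional enzyme of branched chains, was at 166 and 163 TPM in Huh7 and at 122 and 116 TPM in HepG2. ACAA1, the peroxisomal thiolase, was at 194 and 190.0 TPM in Huh7 and at 44.5 and 52.3 TPM in HepG2. PHYH, which starts the α-oxidation of phytanic acid, was at 114 and 95.0 TPM in Huh7 and at 31.1 and 27.9 TPM in HepG2. PEX11A, which takes part in the division of peroxisomes, was at 2.57 and 3.65 TPM in Huh7 and at 13.0 and 14.8 TPM in HepG2, log2 differences of 0.38 and 0.18. Of the 8 genes in this role, 6 were lower in Huh7 and 3 were lower in HepG2, with medians of −0.040 and 0.029.

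Ketone body genes and regulators were in part near the limit of detection. ACAT1, the thiolase that joins acetyl groups at the start of ketone synthesis, was at 99.9 and 104 TPM in Huh7 and at 181 and 172 TPM in HepG2. BDH1, which makes β-hydroxybutyrate in mitochondria, was at 0.240 and 0.0650 TPM in Huh7 and at 1.57 and 1.78 TPM in HepG2. BDH2, a cytosolic relative, was at 8.08 and 9.17 TPM in Huh7 and at 18.4 and 18.3 TPM in HepG2. FGF21, a hormone that the liver secretes in fasting, was listed at 0 in 3 libraries and at 0.139 TPM in Huh7 with COP1-siRNA. PDK4, a kinase that turns off pyruvate dehydrogenase and so favours fat as fuel, was at 0.228 and 0.243 TPM in Huh7 and at 1.80 and 2.02 TPM in HepG2. The level of PDK4 was thus under 1 TPM in both Huh7 libraries and above it in both HepG2 libraries.

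Acyl-CoA thioesterases release free fatty acids from CoA, and none of the 3 was past 1.5-fold in either line. ACOT1, the cytosolic enzyme, was at 10.7 and 12.9 TPM in Huh7 and at 12.4 and 17.2 TPM in HepG2, log2 differences of 0.25 and 0.44. ACOT2, its mitochondrial counterpart, was at 28.9 and 36.1 TPM in Huh7 and at 29.7 and 33.3 TPM in HepG2, log2 differences of 0.31 and 0.16. The coding sequences of ACOT1 and ACOT2 were identical at 1253 of 1266 aligned bases (99.0%) in GENCODE 29, and the genes lie 23820 bases apart on chr14, so the division of reads between them is uncertain. The sum of both was 39.6 and 49.0 TPM in Huh7 and 42.1 and 50.6 TPM in HepG2, log2 differences of 0.30 and 0.26. In the limma fit ACOT1 was at 0.34 (SE 0.111, adjusted p 0.359) and ACOT2 at 0.24 (SE 0.0937, adjusted p 0.453), neither past the threshold. ACOT8, a peroxisomal thioesterase, was at 44.7 and 43.5 TPM in Huh7 and at 28.8 and 32.5 TPM in HepG2, with opposite signs in the lines.

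**Figure D3:**
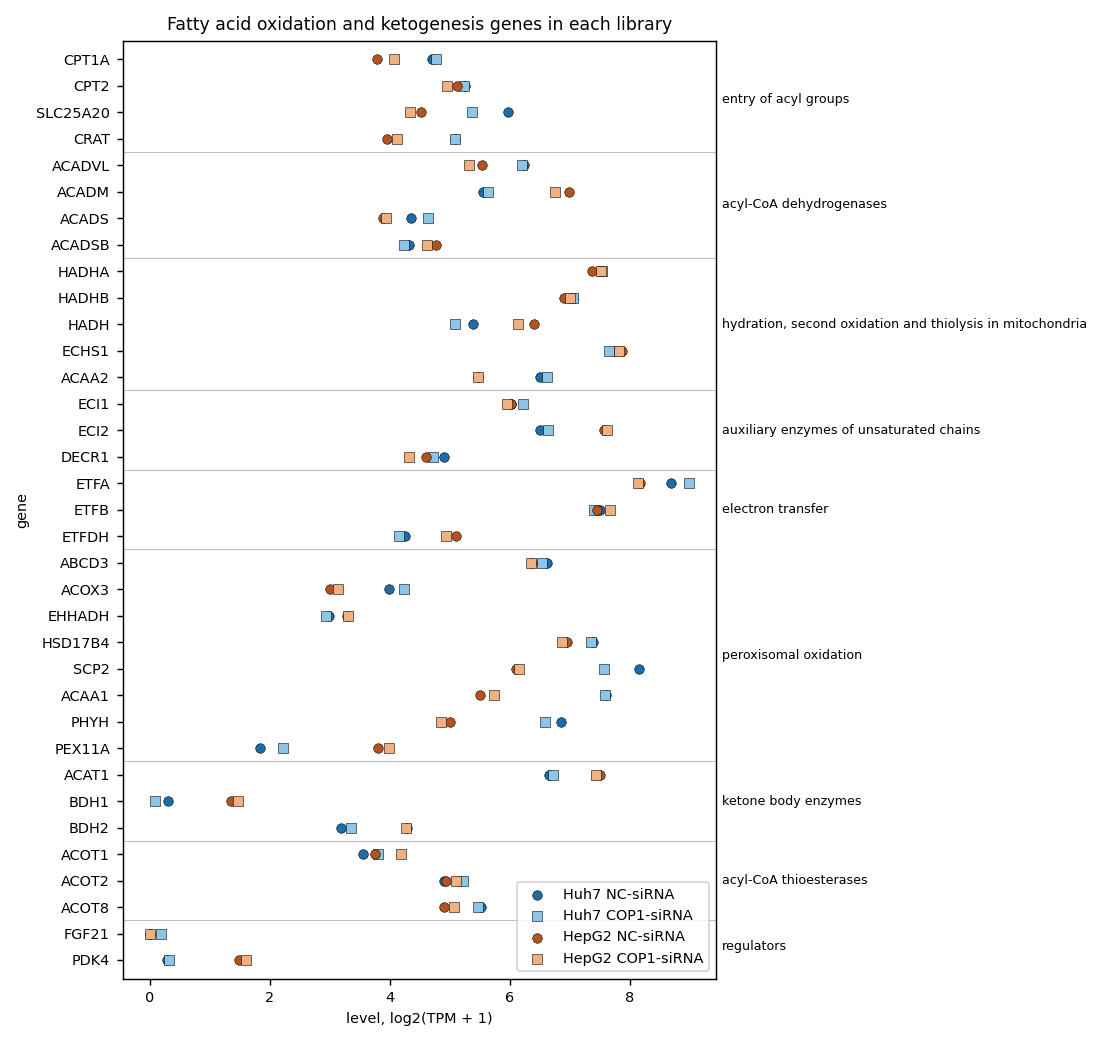
Level of each of the 35 genes, in log2(TPM + 1), in the Huh7 libraries (blue) and the HepG2 libraries (orange), with circles for NC-siRNA and squares for COP1-siRNA, ordered by role. Symbols of the same line lie close together and the lines stand apart for many genes, among them SCP2, ACAA1, PHYH and PEX11A.

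The lines themselves differed far more than the siRNAs within them. With NC-siRNA, 34 of the 35 genes were tested, and 6 were at least 2-fold higher in Huh7 than in HepG2 (SLC25A20, CRAT, ACAA2, SCP2, ACAA1 and PHYH), 6 of 34 where 14.7% of all 15055 tested genes were higher. At least 2-fold lower in Huh7 were 7 of 34 (ACADM, HADH, ECI2, PEX11A, BDH1, BDH2 and PDK4), where 27.9% of all tested genes were lower. Past 1.5-fold were 10 higher and 9 lower, beside 21.3% and 41.7% of all tested genes. The median log2 difference of the 34 genes was 0.13, where that of all tested genes was −0.37, so a typical gene of the group stood above the typical gene in this comparison. Median-of-ratios scaling moved the median of all genes to −0.06 and that of the group to 0.47. It gave 9 higher and 3 lower members, beside 2870 higher and 3125 lower genes in all, in place of 2215 and 4194.

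Peroxisomal thiolases and PHYH led the genes that were higher in Huh7. ACAA1 (chr3:38122710-38137242, minus strand, GRCh38) was at 4.35 times its HepG2 level with NC-siRNA, SCP2 at 4.20 times and PHYH (chr10:13277796-13300130, minus strand) at 3.66 times, on the TPM scale. Both Huh7 libraries lay above both HepG2 libraries for each of these 3 genes. Over both siRNAs, the limma fit gave log2 differences of 1.97 for ACAA1 (SE 0.0932, adjusted p 1.44e-05), 1.79 for PHYH and 1.73 for SCP2. SLC25A20 was at 2.82 times, CRAT at 2.25 times and ACAA2 at 2.08 times their HepG2 levels. ACOX3, at 2.12 times on the TPM scale, was just inside the threshold on the scale with 1 added, with a log2 difference of 0.99.

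The opposite order held for PEX11A, for the medium-chain enzymes and for ketone body genes. PEX11A (chr15:89681535-89690754, minus strand, GRCh38) was 5.04 times as high in HepG2 as in Huh7 with NC-siRNA, although 6 of the 8 genes in the peroxisomal role were above 0 in the Huh7 minus HepG2 difference. ACADM was 2.72 times and HADH 2.06 times as high in HepG2, and ECI2 was lower in Huh7 by a log2 difference of −1.06. BDH2 was 2.28 times as high in HepG2, and BDH1 and PDK4 were 6.56 and 7.89 times as high, from levels under 1 TPM in Huh7. ACAT1 was 1.81 times and ETFDH 1.84 times as high in HepG2. In the limma fit PEX11A had a log2 difference of −1.87 (SE 0.125, adjusted p 4.77e-05) and ACADM one of −1.27 (SE 0.101, adjusted p 8.92e-05), Huh7 minus HepG2.

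The limma line term called 26 of 34 members (76.5%), 15 higher and 11 lower in Huh7, where it called 78.5% of all 15486 genes. The share among the members was thus close to that of all genes. The 8 members it did not call were HADHA, HADHB, ECHS1, ECI1, ETFB, CPT2, ACOT1 and ACOT2. HADHA had a limma log2 difference of 0.08 (SE 0.0780) and HADHB of 0.09 (SE 0.0768). For ETFB the sign of the difference with NC-siRNA turned between TPM (0.05) and FPKM (−0.05). ECHS1, ACOT1 and ACOT2 turned from lower to higher in Huh7 with median-of-ratios scaling. The libraries of a line differ in siRNA and are not known to come from separate cultures, so these p-values measure no spread between cultures. Their error rests on 1 residual degree of freedom per gene, the difference of the siRNA effect between the lines. To this the fit adds a prior of 4.84 degrees of freedom drawn from all genes, so they describe these 4 libraries only.

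**Figure D4:**
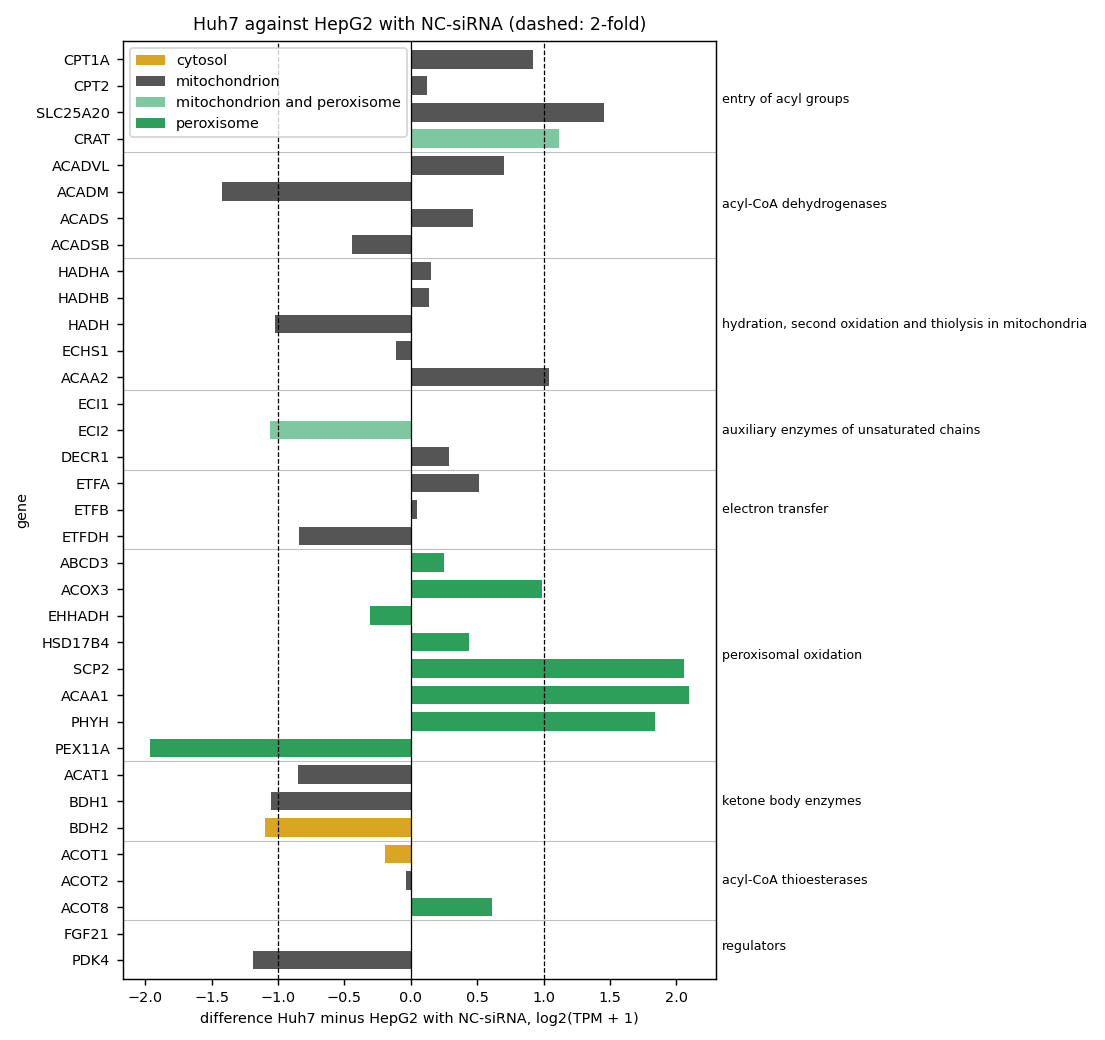
Difference between Huh7 and HepG2 with NC-siRNA, in units of log2(TPM + 1), for the 35 genes, coloured by the place of the enzyme, with 1 library per line and no error bars. Bars past the dashed 2-fold lines to the right include SCP2 at 2.06 and PHYH at 1.84, and bars to the left include PEX11A at −1.97 and ACADM at −1.42, while FGF21 is at 0.

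Summed by the place of the enzyme, the peroxisomal genes stood further apart between the lines than the mitochondrial genes. The 21 mitochondrial genes summed to 1773 and 1843 TPM in Huh7 and to 1718 and 1695 TPM in HepG2. ETFA is among them, at 412 and 506 TPM in Huh7, a difference that was not seen in depth-scaled coverage. The 9 peroxisomal genes summed to 924 and 798 TPM in Huh7 and to 405 and 411 TPM in HepG2. The ratio of the peroxisomal to the mitochondrial sum was 0.521 and 0.433 in Huh7 and 0.236 and 0.242 in HepG2. Without SCP2, ACAA1 and PHYH, left out after their values were seen, the other 6 peroxisomal genes summed to 332 and 326 TPM in Huh7 and to 262 and 261 TPM in HepG2, and the ratio of Huh7 to HepG2 with NC-siRNA went from 2.28 to 1.27. Without SCP2 alone the Huh7 sums were 640.0 and 611 TPM. The 24 tested genes of a wider list of peroxisomal oxidation and assembly had a median log2 difference of −0.17 between the lines, with 4 higher and 4 lower by 2-fold. A ratio within a library does not depend on the scaling between libraries, and both Huh7 values lay above both HepG2 values.

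**Figure D5:**
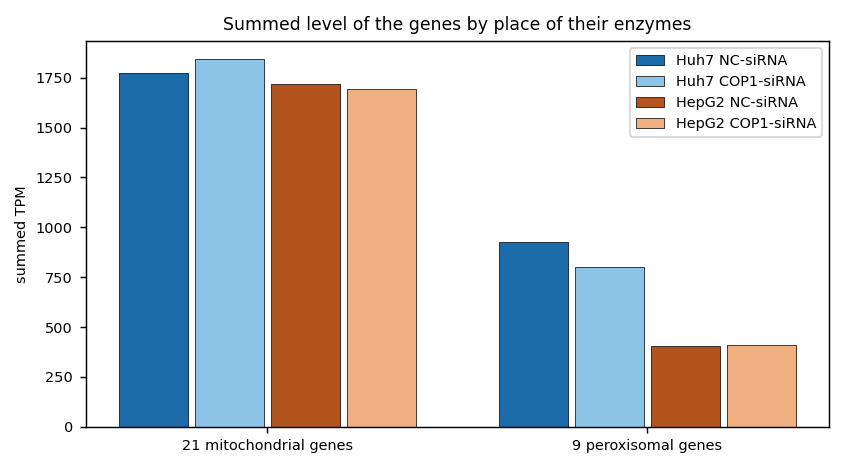
Summed TPM of the 21 mitochondrial and the 9 peroxisomal genes in each of the 4 libraries, with a linear axis from 0 and no error bars. The mitochondrial sums lie between 1695 and 1843 TPM in all libraries, while the peroxisomal sums are 924 and 798 TPM in Huh7 and 405 and 411 TPM in HepG2.

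A further list of 103 genes of uptake, activation, oxidation, peroxisome assembly, ketone use and PPAR regulation was also examined, and 1 gene of it passed 2-fold in each line. In Huh7 81 were tested, 1 was higher (CPT1B) and 0 were lower by 2-fold. In HepG2 93 were tested, 0 were higher and 1 was lower, again CPT1B. These counts are near the shares of all tested genes, 1.08% and 0.934%. The limma siRNA term called 0 of 99. CPT1B, the muscle form of CPT1, was at 0.3997 and 1.80 TPM in Huh7 and at 4.25 and 0.885 TPM in HepG2, opposite directions in the lines. The read-through gene CHKB-CPT1B, which shares its exons, was at 0.985 and 0.138 TPM in Huh7 and at 0.920 and 3.20 TPM in HepG2. Summed over both, the values were 1.38 and 1.94 TPM in Huh7 and 5.17 and 4.08 TPM in HepG2, log2 differences of 0.30 and −0.28, so the 2-fold differences of CPT1B did not remain in the sum.

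Below 2-fold, the genes named next, apart from PPARA, were picked for the largest changes in 1 direction in both lines. Their shared sign was thus set by the choice, and 60.2% of all 11970 genes tested in both lines had the same sign. The limma siRNA term gave adjusted p values of 0.184 for ACSL5, 0.201 for FABP1, 0.226 for RXRB, 0.331 for ESRRA and 0.532 for CROT. ACSL5, which activates long-chain fatty acids, was at 6.27 and 11.3 TPM in Huh7 and at 5.07 and 8.41 TPM in HepG2, log2 differences of 0.76 and 0.63. FABP1, the fatty acid carrier of the hepatocyte, was at 165 and 208 TPM in Huh7 and at 22.4 and 31.8 TPM in HepG2, log2 differences of 0.33 and 0.49. CROT, which makes acylcarnitine in peroxisomes, had log2 differences of 0.28 and 0.21. RXRB, a partner of the PPAR receptors, was at 10.1 and 7.19 TPM in Huh7 and at 20.7 and 14.6 TPM in HepG2, log2 differences of −0.43 and −0.48. ESRRA, a nuclear receptor of mitochondrial genes, had log2 differences of −0.40 and −0.27. PPARA was at 2.13 and 2.42 TPM in Huh7 and at 5.29 and 4.22 TPM in HepG2, with opposite signs in the lines.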

How the data were processed

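RNA of 4 samples was measured, and each was placed in its condition by its own labels. Per the labels, poly(A)+ libraries that keep the strand were made, and the submitters' processing notes name FastQC 0.11.7, Trimmomatic 0.38, HISAT2 2.1.0, StringTie 2.1.3b, edgeR and the build GRCh38, without their order. The authors deposited 1 gene table per library. The TPM values the authors deposited are normalized within a library, the deposited FPKM values are proportional to them, and the deposited coverage is the mean read depth over a gene, not normalized for library depth. Of the gene numbers, 96.3% were found in RefSeq, and 32 of the 35 genes started within 1000 bases of the position there. Lines with the same gene number were summed. Depth is unknown, so no counting interval was given.

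Fold changes were log2((TPM + 1)/(TPM + 1)) with a threshold of 2-fold and a minimum of 1 TPM. The secondary fit was limma 3.58.1 (R 4.3.3) on log2(TPM + 1) with terms for line and siRNA, a mean-variance trend and Benjamini-Hochberg adjustment over all genes, two-sided. Alternatives were a pseudocount of 0.1, FPKM, median-of-ratios and upper-quartile scaling, no minimum, a minimum of 5 TPM, repeated gene numbers kept apart, a threshold of 1.5-fold, limma without the trend and, chosen after the values were seen, depth-scaled coverage and limma on all genes above 0 in a library. The computation was tested on simulated data. The 35 genes and the other lists were chosen with earlier results of these data known. Named were all 35, COP1, and of the other list the genes past 2-fold and at most 3 per role with the largest change in both lines in 1 direction. PPARA, CHKB-CPT1B and the letters AGCAGTC were chosen after their values were seen. Sites were sought in 1 protein-coding transcript per gene of GENCODE 29, promoters in the RefSeq table of GRCh38.p14. Python 3.11.15, numpy 2.4.6, pandas 2.3.3 and matplotlib 3.10.9 were used.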

Additional observations from a re-analysis of the deposited data

How the results depend on the processing

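The count of 0 members past 2-fold between siRNAs held in both lines under each alternative scaling, filter, pseudocount and column. Only the lower threshold changed it, with 2 members past 1.5-fold in Huh7. Between the lines with NC-siRNA, the 7 lower members became 3 and the median of 0.13 became 0.47 with median-of-ratios scaling, which moved all genes together, and the 6 higher members became 10 at 1.5-fold. The limma siRNA term called 0 members under every alternative, while over all genes its count of 0 became 135 with FPKM, 29 with upper-quartile scaling, 10 with a minimum of 5 TPM and 6 with median-of-ratios scaling. The cause was not tested. The limma line term called 24 to 30 members, except 0 without a minimum TPM, where it called no gene at all. With only the genes at 0 in every library left out, an alternative chosen after the values were seen, it called 24 members. The number of all genes past 2-fold between siRNAs, higher and lower, was 83 and 58 in Huh7 and 78 and 57 in HepG2. It became 249 and 141, and 227 and 145, with a pseudocount of 0.1, then 33 and 24, and 21 and 18, with FPKM. With a minimum of 5 TPM it was 34 and 42, and 29 and 26, and with depth-scaled coverage 222 and 124, and 207 and 133. Of the single differences, none that was past 2-fold turned its sign. Signs of small differences turned in 10 of 106 values with FPKM, 8 with upper-quartile scaling, 5 with median-of-ratios scaling and 5 with depth-scaled coverage. No library could be left out, because each condition had 1. The limma fit pairs the libraries by line and gives 1 siRNA effect averaged over both lines, with no test within a line. The labels give no replicate numbers for any other pairing. Unknown depth limits what can be said of BDH1, FGF21 and PDK4 in Huh7.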

Other observations

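Some genes of the wider list, chosen here after their values were seen, stood far apart between the lines with NC-siRNA. Of 97 tested, 23 stood higher in Huh7 and 28 stood lower, by 2-fold or more, where 14.7% and 27.9% of all tested genes did. OXCT1, which starts the use of ketone bodies and is usually low in hepatocytes, was at 2.02 TPM in Huh7 and 43.4 TPM in HepG2. PDK2, a relative of PDK4, was listed at 0 in both Huh7 libraries and was at 16.4 and 19.6 TPM in HepG2 with NC-siRNA and COP1-siRNA. ACADL, the long-chain dehydrogenase, was likewise listed at 0 in Huh7 and was at 4.46 and 3.80 TPM in HepG2.

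PPARG, a nuclear receptor of fat storage, was at 83.4 TPM in Huh7 and 15.5 TPM in HepG2 with NC-siRNA, whereas PPARA was at 2.13 and 5.29 TPM. Coverage per TPM of PPARG was 0.0874 and 0.0888 in these libraries, beside library medians of 2.19 and 2.04. In coverage PPARG was at 7.29 and 1.38 and PPARA at 2.72 and 4.57, so their order in HepG2 depended on the column used. PLIN2, the coat protein of lipid droplets, was at 486 TPM in Huh7 and 49.1 TPM in HepG2 with NC-siRNA. With COP1-siRNA PLIN2 was at 490.3 and 61.5 TPM, log2 differences of 0.01 and 0.32 in Huh7 and HepG2. PNPLA2, the triglyceride lipase ATGL, was at 30.5 and 23.7 TPM in Huh7 and at 74.0 and 80.5 TPM in HepG2 with NC-siRNA and COP1-siRNA, log2 differences of −0.35 and 0.12.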
